A study of Mus musculus with 9 samples.

Results

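The 38 genes described here encode proteases that cut the extracellular matrix or release proteins from the cell surface, and the inhibitors that hold them in check. They were chosen by name as a family, and each was read from probes whose RefSeq accession maps to the gene, with the brightest probe standing for the gene. All 38 had a probe on the array, out of 19997 named genes with one. A gene passed the filter on dim probes, and is called measured, when the scanner software put its probe well above background in every clone of 1 or more of the ploidies, and 32 of the 38 passed. The list holds 7 secreted matrix metalloproteases, 5 membrane-bound ones, 5 metalloprotease inhibitors, 7 ADAM sheddases, 9 ADAMTS proteases and 5 genes of plasminogen activation and serine proteolysis.

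The series set cultures of mouse embryonic cells of different ploidy, the number of chromosome sets, beside each other under a title on triploidy and genome instability. It holds 3 triploid clones (RRI2-5, RRI2-12 and RRI2-15), 3 tetraploid clones (RRI2-2, RRI2-4 and RRI2-6) and 3 diploid clones (RRI2, RRI15 and RRI2-1), numbered 1 to 3 here as in their titles. All 9 share the genotype p53-/-, a loss of the tumour suppressor p53 that the diploid clones carry too, grew in serum-supplemented medium and received no treatment. The genotype field gives p53 throughout, while the free descriptions of most clones name other numbers in its place. Each clone was hybridised to 1 single-colour Agilent array, and whether the clones of a group come from separate animals or cultures, or share a founder line, is not stated.

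Matrix metalloproteases are made as inactive precursors that become active when a propeptide is cut off, often by another protease of the same network. The TIMP proteins bind the active site of most of them, and Reck, anchored in the membrane, restrains several at the cell surface. ADAM proteases mostly cut membrane proteins to release their outer parts, ADAMTS proteases process collagen precursors or cut proteoglycans such as aggrecan and versican, and the plasminogen activators turn plasminogen into plasmin, which can in turn activate metalloproteases. Fibroblasts and other mesenchymal cells are known as a main source of many of these proteins.

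Values are log2 processed signals after the array's own 75th percentile was subtracted, so that 0 is that percentile and 1 unit is 2-fold. Probes differ in how brightly they report a transcript, so a value is compared only between clones for the same gene. Between 44.8% and 50.9% of the spots of an array were well above background, 0 spots were saturated, and the number of arrays limits the precision. The cells carried fibroblast markers, with 7 or 8 of 8 well above background in each clone. Ptprc, Lyz2, Epcam, Cdh1, Pou5f1 and S100a9, which mark leukocytes, epithelium, pluripotent cells and neutrophils, were not above background in any clone. Other genes of the same lists went the other way. Csf1r, Itgam, Cd14, Krt14, Nanog and Elane were above background in all 9 clones, S100a8 in 8 and Krt18 in 6. The mean log2 level of the 8 fibroblast markers spanned 4.52 to 4.84 in triploid clones, 4.33 to 5.54 in tetraploid clones and 4.94 to 6.19 in diploid clones, so triploid clones lay below all diploid ones. By far the largest difference was that of Thy1, a surface protein of fibroblasts, at -2.04, -2.63 and -4.86 in triploid clones, 2.66, -4.67 and -4.13 in tetraploid clones and 6.42, 7.63 and 2.55 in diploid clones. Its log2 difference in triploid against diploid clones was -8.71. The other fibroblast markers went both ways, from -1.78 in Pdgfrb to 1.76 in Col3a1, and were not lower as a set. Of the other marker lists, 3 of 7 macrophage, 2 to 4 of 6 endothelial, 1 to 4 of 6 epithelial, 1 or 2 of 4 pluripotent and 1 to 3 of 4 neutrophil genes were above background per clone. The 6 endothelial genes had a mean log2 level of -3.20 to -3.12 in triploid clones, -2.88 to -1.68 in tetraploid clones and -3.02 to -2.92 in diploid clones. The 3 that passed the filter held 0 calls in tetraploid against diploid clones, and Vwf, above background in tetraploid clones only, was lower in triploid than in tetraploid clones at an adjusted p of 0.0284 by limma. Vwf passed the filter only through the tetraploid clones, in which it was high, so this p-value is no independent support. Tie1 and Tek were each above background in 1 tetraploid clone and no other, while Kdr and Pecam1 were above it in all 9. The part of these marker differences in the protease results was not tested.

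The members that passed the test lay in the comparisons with triploid clones. By limma, with p-values adjusted over all 21797 features, 2 of 32 measured members passed the threshold of 0.05 in triploid against diploid clones, where 1.84% of all features did. Mmp10, a stromelysin, was higher and Adam8, a sheddase of leukocytes and tumour cells, was lower. In triploid against tetraploid clones 3 of 32 passed, Mmp10 higher, Adam8 and Mmp11 lower, beside 2.71% of all features. In tetraploid against diploid clones 0 of 32 passed by limma, against 0.0734% of features. An unadjusted p under 0.05 was found in 13 of 32 in triploid against diploid clones, against 21.2% of features, in 10 of 32 in triploid against tetraploid clones, against 20.8%, and in 6 of 32 in tetraploid against diploid clones, against 14.8%. Any pair of these comparisons shares a group of clones, so their values are given side by side and not as repeats of each other.

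**Figure D1:**
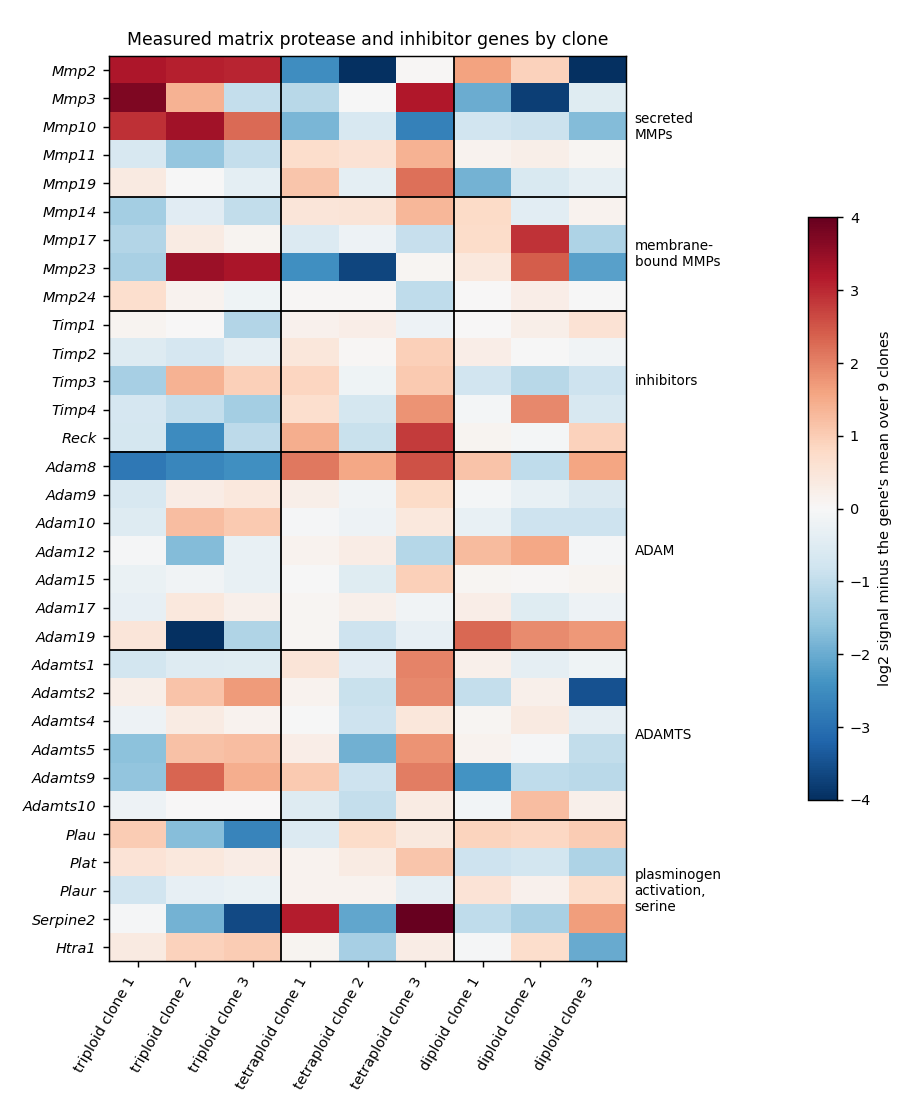
Log2 signal of the 32 measured members in each of the 9 clones, as the difference from the gene's own mean over all clones, with genes grouped by role, clones by ploidy and colours ending at 4 units either way. Mmp2 and Mmp10 stand high in all 3 triploid clones and Adam8 low, while many other genes differ as much within a group as between groups.

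The members were split in direction rather than shifted as a block. The median difference over the 32 was -0.12 in triploid against diploid clones, where the median over all features was 0.09. It was 0.27 in tetraploid against diploid clones, beside -0.02 for all features, and -0.25 in triploid against tetraploid clones, beside 0.16. These medians depend on single clones: leaving out 1 clone at a time moved the first between -0.21 and 0.04 and the third between -0.41 and -0.01. The second was -0.04 without tetraploid clone 3 and 0.70 without tetraploid clone 2. In triploid against diploid clones 16 differences were positive and 16 negative. The 3 triploid values lay all above the 3 diploid values in 5 members, where 17.1% of features did so, and all below them in 11, where 10.8% of features did so, which makes 16 of 32 without overlap beside 28% of features. Without overlap were also 8 of 32 in triploid against tetraploid clones, beside 26% of features, and 9 of 32 in tetraploid against diploid clones, beside 22.1%. Set against all 6 other clones, the triploid clones were highest in Mmp2 and Mmp10, 2 members beside 6.01% of features, and lowest in Mmp11, Mmp14, Timp2, Adam8 and Adamts1, 5 members beside 4.81% of features. The tetraploid clones were highest in Mmp11 alone, beside 3.55% of features. The diploid clones were highest in Adam19 and Plaur, 2 members beside 3.73% of features, and lowest in Mmp19 and Plat, 2 members beside 3.83%.

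Of the 7 secreted metalloproteases, 5 were measured, and Mmp10 and Mmp11 passed in 1 or more comparisons. At an unadjusted p under 0.05 there were 4 of 5 in triploid against diploid clones, beside 21.2% of features. There were 3 in triploid against tetraploid clones, beside 20.8%, and 2 in tetraploid against diploid clones, beside 14.8%. Mmp10, also called stromelysin-2, cuts proteoglycans, fibronectin and other matrix proteins and can activate collagenases. It measured -0.85, -0.39 and -1.49 in triploid clones 1 to 3, against -5.58, -4.42 and -6.46 in tetraploid clones and -4.53, -4.63 and -5.50 in diploid clones. The triploid clones were the only ones in which the probe was well above background, and their values did not overlap with those of either other group. Measured against the lowest signal called above background on the arrays of the dark group, Mmp10 was 7.29-fold higher in triploid than in diploid clones. Against tetraploid clones it was 7.52-fold higher. The fitted log2 differences, 3.98 ± 0.52 and 4.58 ± 0.52 (SE), had adjusted p-values of 0.0114 and 0.00492 by limma. They rest on signals under background in the other groups and are no bounds. Mmp10 passed the filter only through the clones in which it was high, so these p-values are no independent support, and without the filter they were 0.0253 and 0.0104. With normexp background correction the log2 differences were 1.43 and 1.66, less than these folds, which are therefore no strict lower limits. The call against diploid clones was lost without triploid clone 2, at an adjusted p of 0.0524. RNA of a whole culture was measured, so fewer cells of a type and less RNA per cell cannot be told apart here or in any result that follows.

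**Figure D2:**
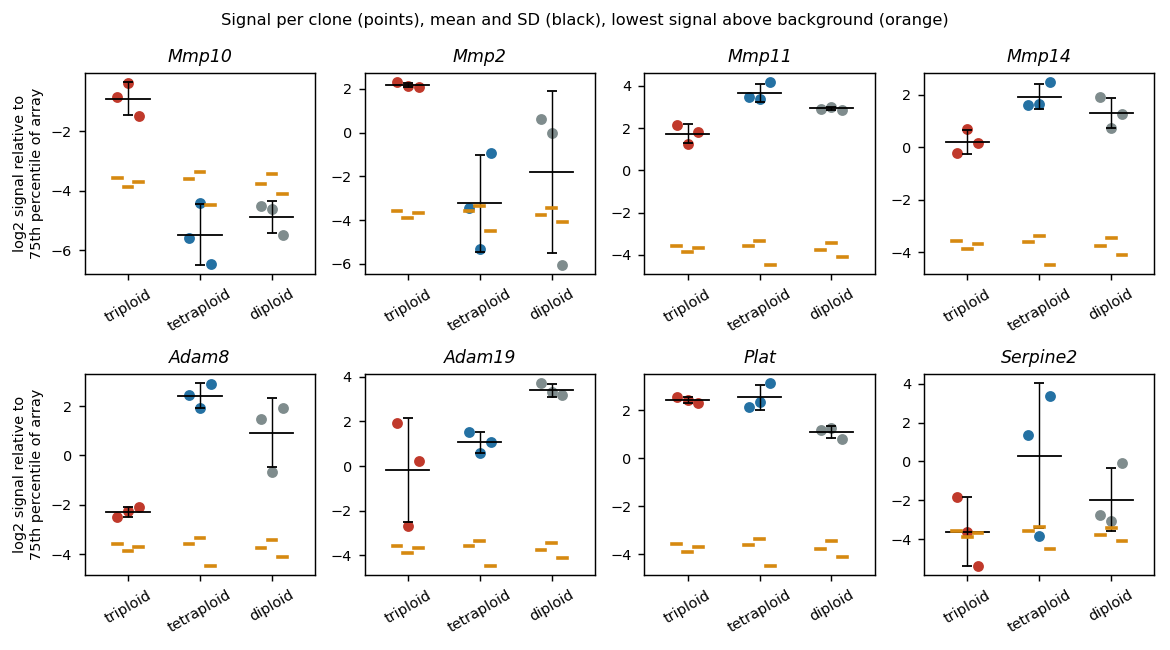
Log2 signal, centred on each array's 75th percentile, for 8 members, with each clone as a coloured point, the group mean and SD (n = 3) in black, and the lowest signal called above background on each array as an orange bar. Mmp10 lies above the bars only in triploid clones, Adam8 lies lowest in them, and Mmp2 and Serpine2 spread over several log2 units within groups.

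Mmp10 belongs to a run of metalloprotease genes on chromosome 9, so its neighbours were read beside it. In the order of the RefSeq annotation of GRCm38.p6 the run goes Mmp13, Mmp12, Mmp1b, Mmp3, Mmp1a, Mmp10, Mmp8, Mmp27, Mmp20 and Mmp7, and all but Mmp27 had a probe that could be used. Mmp3, or stromelysin-1, was well above background in all 9 clones, at 4.45, 2.12 and -0.23 in triploid clones, -0.36, 0.72 and 3.95 in tetraploid clones and -1.25, -3.03 and 0.24 in diploid clones. Its groups overlapped, and its difference in triploid against diploid clones, 3.46 ± 1.39, had an adjusted p of 0.200 by limma. Mmp13, or collagenase-3, was well above background in triploid clones 1 and 2 at -2.15 and -2.88 and in none of the other 7 clones, which kept it from passing the filter. Mmp8, a neutrophil collagenase, was above background in triploid clone 2 alone, at -1.90. Mmp12, Mmp1b, Mmp1a, Mmp20 and Mmp7 were not well above background in any clone.

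**Figure D3:**
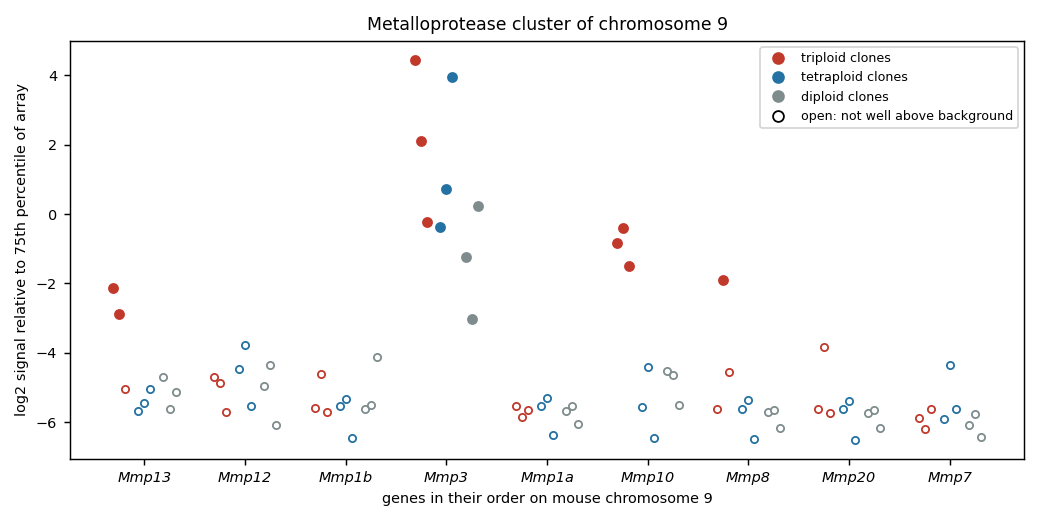
Log2 signal, centred on each array's 75th percentile, for the 9 genes with a probe in the metalloprotease run of chromosome 9, in chromosomal order, with 3 points per ploidy and open points where the probe was not well above background. Besides Mmp3, which is filled in all 9 clones, the only filled points belong to triploid clones, in Mmp13, Mmp10 and Mmp8.

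The 250 bases before the annotated gene start are shown for the 3 members of this run and for the pair of members called lower, to set their promoters side by side. They are RefSeq sequences of GRCm38.p6, which holds an entry for 24 of the 38 members. Mmp13 is at chr9:7272264-7272513, Mmp3 at chr9:7445572-7445821 and Mmp10 at chr9:7502092-7502341, all on the plus strand, with Adam8 at chr7:139992563-139992812 and Mmp11 at chr10:75932503-75932752 on the minus strand. Each reads 5′ to 3′ on the strand of its gene, and capitals mark matches, on either strand, to the AP-1 motif TGANTCA, the PEA3 motif AGGAAG or the TATA motif TATAAA.
Mmp10: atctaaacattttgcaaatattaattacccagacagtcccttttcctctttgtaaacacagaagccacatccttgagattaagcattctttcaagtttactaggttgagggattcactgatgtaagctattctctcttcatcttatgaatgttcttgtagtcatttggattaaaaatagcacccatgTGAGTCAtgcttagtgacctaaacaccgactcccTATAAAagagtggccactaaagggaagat
Mmp3: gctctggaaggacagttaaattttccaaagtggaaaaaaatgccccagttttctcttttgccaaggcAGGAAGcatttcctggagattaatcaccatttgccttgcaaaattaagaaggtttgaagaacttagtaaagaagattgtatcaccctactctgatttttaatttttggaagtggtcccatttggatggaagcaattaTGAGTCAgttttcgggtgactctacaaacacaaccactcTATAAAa
Mmp13: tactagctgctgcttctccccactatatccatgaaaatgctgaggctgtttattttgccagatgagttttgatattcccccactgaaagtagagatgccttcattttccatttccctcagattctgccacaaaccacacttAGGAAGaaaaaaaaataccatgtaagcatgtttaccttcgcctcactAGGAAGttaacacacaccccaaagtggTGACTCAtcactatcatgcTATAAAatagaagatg
Adam8: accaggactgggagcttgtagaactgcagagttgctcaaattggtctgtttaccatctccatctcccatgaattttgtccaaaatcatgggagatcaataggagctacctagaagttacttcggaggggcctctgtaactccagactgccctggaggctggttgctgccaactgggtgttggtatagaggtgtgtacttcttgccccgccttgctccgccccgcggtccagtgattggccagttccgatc
Mmp11: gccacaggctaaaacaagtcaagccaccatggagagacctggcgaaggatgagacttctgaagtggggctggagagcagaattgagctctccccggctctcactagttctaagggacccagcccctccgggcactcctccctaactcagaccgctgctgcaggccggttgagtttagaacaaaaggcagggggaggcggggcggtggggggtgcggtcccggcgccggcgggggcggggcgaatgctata

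All 3 genes of the chromosome 9 run held 1 AP-1 match, 63 to 57 bases before the start in Mmp10, 46 to 40 in Mmp3 and 35 to 29 in Mmp13. An AP-1 match stands in 6.75% of all 32851 promoter entries of this length, and 5 of the 24 members with an entry had one. The same 3 genes held a TATA match, found in 12.4% of entries. The PEA3 motif, found in 29.5% of entries, matched once in Mmp3, 2 times in Mmp13 and not in Mmp10. None of the 3 motifs overlapped another, and none occurred in these windows of Adam8 or Mmp11. A match describes the letters only. AP-1 is the Fos and Jun complex, a known regulator of collagenase and stromelysin genes, and its binding was not measured here.

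Mmp2, gelatinase A, cuts denatured collagen and the collagen of basement membranes. Its level was 2.30, 2.15 and 2.09 in triploid clones, -3.44, -5.32 and -0.92 in tetraploid clones and 0.64, -0.02 and -6.07 in diploid clones. The triploid clones lay close together and above the other 6, while tetraploid clones 1 and 2 and diploid clone 3 were not well above background. The differences of 5.41 ± 1.65 against tetraploid and 3.99 ± 1.65 against diploid clones did not pass limma's threshold, with adjusted p-values of 0.111 and 0.209, and with dark arrays at the lowest signal above background they were 4.75 and 3.34. Without diploid clone 3, whose value widens the shared spread, the difference against tetraploid clones had an adjusted p of 0.0267 by limma. This was the lowest when clones were left out in turn, and the highest was 0.248. Mmp2 passed the filter only through the triploid clones, in which it was high, so these p-values are no independent support.

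Mmp11, stromelysin-3, is known to be activated inside the cell by furin and to cut few classical matrix proteins. It measured 2.15, 1.24 and 1.83 in triploid clones, 3.47, 3.36 and 4.16 in tetraploid clones and 2.92, 3.02 and 2.87 in diploid clones. The 3 groups did not overlap, with triploid lowest and tetraploid highest. Mmp11 was lower by limma in triploid than in tetraploid clones, at a log2 difference of -1.92 ± 0.30 and an adjusted p of 0.0170, and a second probe gave -1.98. That call was lost without triploid clone 2 or 3 or tetraploid clone 1 or 3, at adjusted p-values of 0.0533 to 0.0647. Against diploid clones the triploid difference was -1.20 ± 0.30 and the tetraploid difference 0.73 ± 0.30, with adjusted p-values of 0.0777 and 0.303.

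Mmp19, which cuts basement membrane proteins, was dim throughout, at -2.35, -2.71 and -3.10 in triploid clones, -1.60, -3.09 and -0.51 in tetraploid clones and -4.61, -3.31 and -3.12 in diploid clones. Diploid clones lay below the other 6, by a small margin for clone 3, and diploid clone 1 was not well above background. The tetraploid difference from diploid clones was 1.95 ± 0.62, with an adjusted p of 0.198. Mmp9, gelatinase B, was not well above background in any of the 9 clones.

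None of the 4 measured membrane-bound metalloproteases passed limma's threshold, and at an unadjusted p under 0.05 there were 1 in triploid against diploid clones, beside 21.2% of features, 2 in triploid against tetraploid clones, beside 20.8%, and 0 in tetraploid against diploid clones, beside 14.8%. Mmp14, or MT1-MMP, cuts fibrillar collagen at the cell surface and activates the Mmp2 precursor with the help of Timp2. Its level was -0.20, 0.70 and 0.15 in triploid clones, 1.62, 1.66 and 2.47 in tetraploid clones and 1.90, 0.74 and 1.27 in diploid clones. Triploid clones lay below the other 6, with triploid clone 2 just under diploid clone 2. The log2 difference was -1.70 ± 0.38 against tetraploid and -1.09 ± 0.38 against diploid clones, with adjusted p-values of 0.0510 and 0.156 by limma. The first stood so close to the threshold that 4 of 20 other settings put it past it, the lowest at 0.0406.

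The other membrane-bound members differed mostly between clones of the same group. Mmp23, anchored by its amino end, measured -0.76, 3.98 and 3.82 in triploid clones, -1.91, -3.14 and 0.62 in tetraploid clones and 0.98, 2.98 and -1.63 in diploid clones. Every group held clones more than 3 log2 units apart. Mmp17, or MT4-MMP, averaged -1.52 ± 0.81 in triploid, -1.83 ± 0.36 in tetraploid and -0.49 ± 2.06 in diploid clones (SD, n = 3 each), and diploid clone 2 alone reached 1.60. Mmp24, or MT5-MMP, stayed between -3.89 and -2.18 in all 9 clones, and Mmp16, or MT3-MMP, was not well above background in any.

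All 5 inhibitors were measured, and 0 of 5 passed the limma threshold in any comparison. At an unadjusted p under 0.05 there were 0 in triploid against diploid clones, 2 in triploid against tetraploid clones and 1 in tetraploid against diploid clones, where 21.2%, 20.8% and 14.8% of features were. In triploid against tetraploid clones all 5 differences were negative, with a median of -0.999 beside 0.16 for all features, and the count of 5 was the same under each other scaling. It was 4 without triploid clone 1 or tetraploid clone 3, where the sign of Timp3 turned, and normexp gave a median of -0.65. Timp2, an inhibitor that also takes part in Mmp2 activation, lay at 7.20 to 7.49 in triploid clones, 7.89 to 8.81 in tetraploid clones and 7.73 to 8.13 in diploid clones. Triploid clones were below the other 6, by -0.999 ± 0.27 against tetraploid clones at an adjusted p of 0.0789. This is the median of the 5, and a second probe for Timp2 gave -0.17 ± 0.23, so the probes disagree. Timp1, on chromosome X, lay between 6.32 and 8.05 in all clones, with triploid clone 3 lowest.

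Timp3, the member of its family that stays bound to the matrix, measured 4.90, 7.63 and 7.20 in triploid clones, 7.09, 6.05 and 7.29 in tetraploid clones and 5.46, 5.14 and 5.40 in diploid clones. Tetraploid clones and triploid clones 2 and 3 lay above all diploid clones, and triploid clone 1 below them. The tetraploid difference from diploid clones was 1.48 ± 0.64 with an adjusted p of 0.328. Without triploid clone 1 the triploid difference was 2.08, and it then passed by limma at an adjusted p of 0.0179, where 6.58% of features passed.

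By their brightest probes that passed the filter, Timp4 and Reck were not well above background in any triploid clone, and both passed only through the diploid clones. Timp4, an inhibitor best known from heart, measured -3.28, -3.57 and -3.98 in triploid clones, -1.95, -3.30 and -0.80 in tetraploid clones and -2.68, -0.69 and -3.24 in diploid clones. Reck measured -3.62, -5.42 and -3.94 in triploid clones, -1.47, -3.80 and -0.11 in tetraploid clones and -2.81, -2.99 and -1.98 in diploid clones. Both were well above background in all diploid clones and in tetraploid clones 1 and 3. Each was set against the lowest signal above background on the triploid arrays, except that in triploid clones 1 and 2 Timp4 itself lay higher and was used. Timp4 was then 2.49-fold and Reck 2.19-fold lower in triploid than in diploid clones, and the fitted differences had adjusted p-values of 0.309 and 0.275 by limma. Against tetraploid clones the folds were 2.83 and 3.80, and the fitted differences had adjusted p-values of 0.258 and 0.136. None of these passed, and the sizes depend on clones and processing. The fitted Timp4 difference from diploid clones, -1.41, was -0.65 without diploid clone 2, its brightest, and normexp gave -0.29 for Timp4 and -0.45 for Reck. All were less than these folds, which are therefore no strict lower limits. A second Reck probe, which missed the filter, was at -2.65, -3.14 and -3.87 in triploid clones, -2.24, -3.41 and -1.13 in tetraploid clones and -3.74, -3.29 and -3.13 in diploid clones. It was above background in 2 clones of each ploidy, triploid clones 1 and 2 included, and averaged -3.22 in triploid and -3.39 in diploid clones, so the lower Reck signal of triploid clones was not seen with it.

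Of the 7 ADAM genes, all of them measured, Adam8 alone passed, in both comparisons with triploid clones, where 1.84% and 2.71% of features did. At an unadjusted p under 0.05 there were 4 of 7 in triploid against diploid clones, beside 21.2% of features. There was 1 in triploid against tetraploid clones, beside 20.8%, and there were 2 in tetraploid against diploid clones, beside 14.8%. Adam8 is known mainly from leukocytes and from tumours, where it sheds adhesion proteins and cytokine receptors. It measured -2.52, -2.25 and -2.10 in triploid clones, 2.46, 1.90 and 2.90 in tetraploid clones and 1.49, -0.67 and 1.94 in diploid clones. The triploid clones were low and tight, with no overlap with either group, and the nearest other clone was diploid clone 2. Adam8 was 26.2-fold lower in triploid than in tetraploid clones, a log2 difference of -4.71 ± 0.60 with an adjusted p of 0.00744 by limma. Leaving out each clone in turn moved this p between 0.000382 and 0.0384. Against diploid clones it was 9.25-fold lower, at -3.21 ± 0.60 and an adjusted p of 0.0392. With normexp the log2 differences were -3.50 and -2.16. The call against diploid clones was lost in 8 of 20 other settings, among them those without triploid clone 2 or 3, tetraploid clone 1 or diploid clone 1 or 3, at adjusted p-values of 0.0664 to 0.120. Of the leukocyte markers read with it, Csf1r, Itgam and Cd14 were above background in all 9 clones and Ptprc, Adgre1, Lyz2 and Fcgr1 in none.

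Adam19 and Adam12, related sheddases of mesenchymal cells and muscle, both had their highest group mean in diploid clones. Adam19 measured 1.92, -2.69 and 0.22 in triploid clones, 1.51, 0.59 and 1.09 in tetraploid clones and 3.71, 3.31 and 3.16 in diploid clones. The diploid clones lay above the other 6, and the triploid clones spread over 4.61 log2 units. The differences from diploid clones were -3.58 ± 0.93 for triploid and -2.33 ± 0.93 for tetraploid clones, with adjusted p-values of 0.0846 and 0.288. Adam12 measured -1.20, -2.87 and -1.44 in triploid clones, -1.01, -0.86 and -2.28 in tetraploid clones and 0.11, 0.38 and -1.19 in diploid clones. Its triploid difference from diploid clones was -1.61 ± 0.58 with an adjusted p of 0.167, and triploid clone 1 all but touched diploid clone 3.

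Adam10, which cuts Notch and many other receptors, was at 3.20, 4.95 and 4.78 in triploid clones, 3.67, 3.53 and 4.16 in tetraploid clones and 3.43, 2.91 and 2.91 in diploid clones. Triploid clone 1 stood among the diploid clones and triploid clones 2 and 3 above every other clone. Over all 3 clones the triploid difference from diploid clones was 1.23 ± 0.44 with an adjusted p of 0.164. Without triploid clone 1 it was 1.78 with an adjusted p of 0.0113 by limma, where 6.58% of features passed. Adam17, which releases TNF, and Adam9 and Adam15 had small fitted differences, none larger than the 0.60 ± 0.35 of Adam9 in tetraploid against diploid clones.

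**Figure D4:**
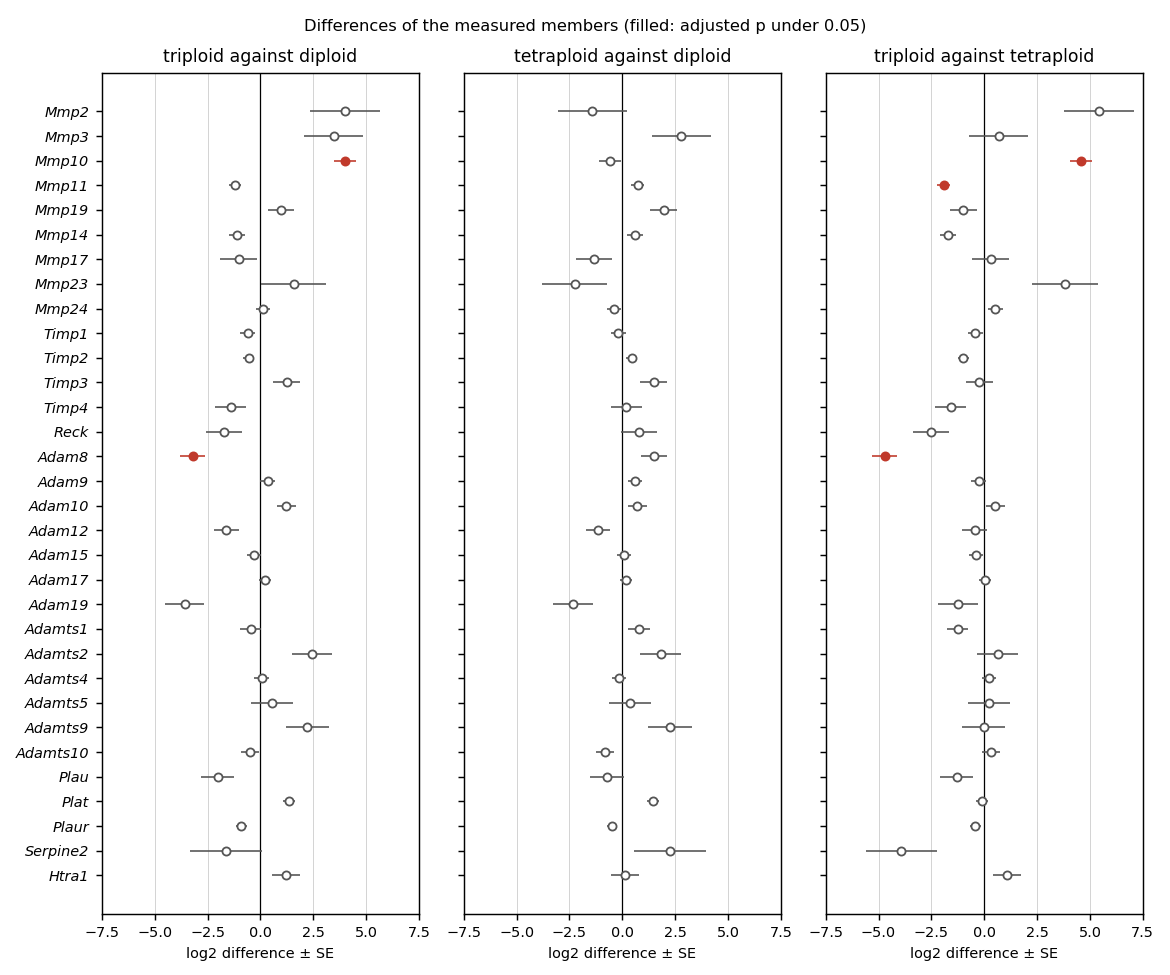
Fitted log2 difference ± SE of each of the 32 measured members in the 3 comparisons, with filled red points where the limma p adjusted over all features was under 0.05. Filled points are Mmp10 and Adam8 against diploid clones, Mmp10, Mmp11 and Adam8 against tetraploid clones, and none in tetraploid against diploid clones, while the widest bars belong to Serpine2, Mmp2, Mmp23 and Mmp3.

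Among the ADAMTS proteases 6 of 9 were measured and 0 of 6 passed by limma, with 1 at an unadjusted p under 0.05 in each comparison that involves triploid clones, beside 21.2% and 20.8% of features, and 0 in the other, beside 14.8%. Adamts2, which removes the amino propeptide of fibrillar procollagens, measured 2.71, 3.59 and 4.16 in triploid clones, 2.61, 1.58 and 4.37 in tetraploid clones and 1.50, 2.65 and -1.02 in diploid clones. Triploid clones lay above diploid clones, though triploid clone 1 exceeded diploid clone 2 by little. The difference was 2.44 ± 0.95 with an adjusted p of 0.188. Adamts1, which cuts versican and aggrecan, was at 3.90 to 4.14 in triploid clones, 4.20 to 6.61 in tetraploid clones and 4.28 to 4.85 in diploid clones. Triploid clones were tight and below the other 6, by -1.26 ± 0.51 against tetraploid clones at an adjusted p of 0.202.

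Adamts9, another versican protease, measured -1.62, 2.30 and 1.41 in triploid clones, 1.02, -0.86 and 2.01 in tetraploid clones and -2.44, -1.05 and -1.10 in diploid clones. Every tetraploid clone lay above the diploid clones, with a difference of 2.25 ± 1.02 and an adjusted p of 0.347. Triploid clones 2 and 3 lay above them too. Without triploid clone 1 the triploid difference of 3.38 passed by limma at an adjusted p of 0.0423, where 6.58% of features passed. Adamts5, the main aggrecanase of mouse cartilage, measured -0.35, 2.48 and 2.54 in triploid clones, 1.57, -0.62 and 3.09 in tetraploid clones and 1.44, 1.25 and 0.31 in diploid clones, and its groups overlapped. Adamts4 stayed between -1.42 and -0.15 in all clones, and Adamts10, linked to fibrillin microfibrils, between -3.47 and -1.29. Adamts7 was above background in triploid clone 2 and tetraploid clone 1, Adamts12 in 1 tetraploid and 2 diploid clones, and Adamts15 in none.

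The plasminogen group and Htra1 were measured in all 5 members, and 0 of 5 passed by limma. Unadjusted, 3 were under 0.05 in triploid against diploid clones, where 21.2% of features were, 1 in triploid against tetraploid clones, where 20.8% were, and 1 in tetraploid against diploid clones, where 14.8% were. Plat, tissue plasminogen activator, measured 2.56, 2.45 and 2.31 in triploid clones, 2.16, 2.35 and 3.13 in tetraploid clones and 1.19, 1.28 and 0.80 in diploid clones. The diploid clones lay below the other 6 with a wide gap and little spread. The difference from diploid clones was 1.35 ± 0.28 for triploid and 1.45 ± 0.28 for tetraploid clones, and the adjusted p-values of 0.0513 and 0.0879 by limma both missed the threshold. Plaur, the receptor that holds urokinase at the cell surface, ran the other way, at 3.48 to 3.99 in triploid clones, 3.88 to 4.38 in tetraploid clones and 4.40 to 4.95 in diploid clones. The diploid clones lay above the other 6, and the triploid difference of -0.91 ± 0.26 had an adjusted p of 0.0999.

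Plau, urokinase itself, measured 0.34, -2.38 and -3.34 in triploid clones, -1.23, 0.04 and -0.30 in tetraploid clones and 0.22, 0.14 and 0.33 in diploid clones. The diploid clones agreed within 0.19 log2 units, while triploid clones 2 and 3 lay far below triploid clone 1. Without that clone the triploid difference from diploid clones was -3.09, with an adjusted p of 0.00639 by limma, where 6.58% of features passed. With it the values were -2.03 ± 0.79 and 0.188. Serpine2, protease nexin-1, inhibits thrombin and urokinase and spread widely within groups. It measured -1.82, -3.65 and -5.37 in triploid clones, 1.37, -3.83 and 3.37 in tetraploid clones and -2.76, -3.04 and -0.09 in diploid clones. Serpine2 was not well above background in tetraploid clone 2 or in triploid clones 2 and 3, so its low values there only mark signals that were not called. In triploid clone 2 its signal still lay over the dimmest called one of that array, -3.89.

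Htra1, a secreted serine protease of matrix proteins, measured 5.35, 5.88 and 5.99 in triploid clones, 5.08, 3.64 and 5.26 in tetraploid clones and 4.92, 5.67 and 2.97 in diploid clones. Triploid clones lay above tetraploid clones, by 1.08 ± 0.67 at an adjusted p of 0.387, and overlapped with diploid clones. Triploid clone 1 stood just over tetraploid clone 3, and leaving out clones in turn moved the difference between 0.57 and 1.38.

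These genes varied more between clones of the same ploidy than most features did. The median SD within groups was 0.854 log2 units over the 32 measured members and 0.373 over all features. A range of more than 4-fold between the 3 clones of at least 1 group was found in 18 of 32 members, or 56.2%, against 12.4% of features. Within triploid clones 8 members had such a range, within tetraploid clones 12 and within diploid clones 9. Of all 21797 features 1509, 1365 and 954 did, in the same order. In several members triploid clone 1 stood apart from triploid clones 2 and 3, which correlated with each other at 0.985 over all features, against 0.948 and 0.956 for triploid clone 1. Mmp23, Timp3, Adam10, Adamts5 and Adamts9 were lower in it than in either of them, and Plau was higher. Over all features triploid clone 1 correlated with diploid clones at 0.949 to 0.964 and with tetraploid clones at 0.930 to 0.957. It thus lay no closer to its own group than to diploid clones.

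Tetraploid clone 3 was the highest of its group in 23 of 32 members and tetraploid clone 2 the lowest in 21. Over all features tetraploid clone 3 was highest in 23.9% and tetraploid clone 2 lowest in 22.4%, so the members ran against the features at large. The features themselves were uneven, with tetraploid clone 3 lowest in 58.0% and tetraploid clone 2 highest in 55.1%. The part of the array scaling in these shares was not tested. Reck, Serpine2, Adamts1, Adamts2, Adamts5 and Adamts9 all had tetraploid clone 3 highest and tetraploid clone 2 lowest. Tetraploid clone 2 also had the fewest members above background, 25 of 38, where the other 8 clones had 29 to 32, and the fewest spots above background. The part of that in its low values was not tested. Diploid clone 3 was the lowest of its group in 16 of 32 members, against 31.7% of features, among them Mmp2, Mmp23, Adamts2 and Htra1.

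**Figure D5:**
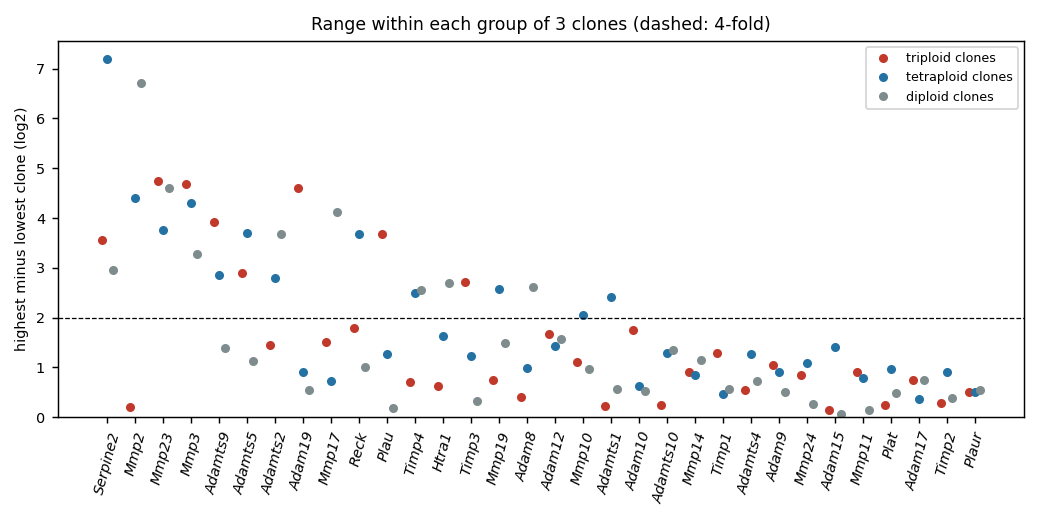
Difference between the highest and lowest of the 3 clones of each ploidy on the log2 scale, for the 32 measured members sorted by their SD within groups, with a dashed line at 4-fold. Serpine2 in tetraploid clones and Mmp2 in diploid clones reach furthest, each with its lowest clone not well above background, while Plaur and Timp2 stay under 1 in every group.

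What passed the test depended on which clones were included. Without triploid clone 1, 8 of 32 members passed against diploid clones, where 6.58% of features did. These were Mmp10, Timp3, Adam10 and Adamts9, higher in triploid clones, and Mmp11, Adam8, Adam19 and Plau, lower. Against tetraploid clones 4 then passed, Mmp10, Mmp11, Adam8 and Plau, beside 6.01% of features. Without triploid clone 2, 0 of 32 passed against diploid clones by limma, where 0.28% of features did, and 7 had an unadjusted p under 0.05, where 13.7% of features did. Against tetraploid clones Mmp10 and Adam8 then passed, 2 of 32 beside 0.624% of features. Without tetraploid clone 2, 7 members passed in triploid against tetraploid clones, where 4.21% of features did. They were Mmp10, higher, and Mmp11, Timp2, Reck, Adam8, Adamts1 and Serpine2, lower. In tetraploid against diploid clones 0 members passed by limma whichever clone was left out, with 3 to 12 at an unadjusted p under 0.05, where 8.63% to 16.9% of features were.

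A further list of 71 protease and inhibitor genes was read beside the members, with 69 on the array and 35 passing the filter. In triploid against diploid clones 1 of the 35 was higher and 1 was lower by limma, where 1.84% of features were called. In triploid against tetraploid clones 1 was higher and 2 were lower, beside 2.71%. In tetraploid against diploid clones 0 passed, beside 0.0734%. At an unadjusted p under 0.05 there were 11, 13 and 10 of the 35 in these comparisons, in the same order, where 21.2%, 20.8% and 14.8% of features were. Slpi, a secreted inhibitor of neutrophil elastase, measured 4.55, 4.13 and 3.42 in triploid clones, -5.71, -2.80 and -6.26 in tetraploid clones and -3.15, 0.47 and -5.11 in diploid clones. It was above background in all triploid clones and in 1 tetraploid and 2 diploid clones. Its difference was 6.63 ± 1.32 against diploid clones and 8.96 ± 1.32 against tetraploid clones, with adjusted p-values of 0.0465 and 0.0140, or 6.29 and 7.66 log2 units with dark arrays at the lowest signal above background. Slpi too passed the filter only through the triploid clones in which it was high, and without the filter the p-values were 0.0924 and 0.0253.

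Furin, a convertase that cuts the propeptides of Mmp11 and Mmp14, was at 1.34, 0.97 and 1.28 in triploid clones, 1.70, 1.67 and 1.66 in tetraploid clones and 2.68, 2.42 and 1.94 in diploid clones. It was lower in triploid than in diploid clones by limma, at -1.15 ± 0.24 and an adjusted p of 0.0494. In triploid against tetraploid clones Pcsk6, a related convertase, was lower at -3.41 ± 0.73, with an adjusted p of 0.0453, and Adamtsl4, a matrix protein of the ADAMTS-like family, at -1.98 ± 0.43, with an adjusted p of 0.0457. These calls stood near the threshold. Of 19 other settings 8 kept that of Furin, 10 that of Pcsk6 and 9 that of Adamtsl4, and of 18 settings 10 kept Slpi against diploid and 14 against tetraploid clones. None of the 10 further metalloprotease genes with a probe passed the filter. The 9 cathepsins and cystatins measured held 0 calls by limma in the 3 comparisons, where 0.0734% to 2.71% of features were called. At an unadjusted p under 0.05 there were 3 in triploid against diploid clones, beside 21.2% of features. There were 3 in triploid against tetraploid clones, beside 20.8%, and 2 in tetraploid against diploid clones, beside 14.8%.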

How the data were processed

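RNA of 9 clones was labelled with Cy3 and hybridised to single-colour Agilent arrays, per the labels' protocols. Per the file headers, Feature Extraction 10.7.3.1 scanned a design based on mm9, and the deposited processed signal is an intensity from which the scanner software had subtracted background, not scaled across arrays. The authors' deposited log2 table equalled these signals on the log2 scale, less 1 offset for each array and less diploid clone 1, at 100% of probes within 0.001, and served as an alternative.

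The log2 processed signal was averaged over spots of a probe and centred on the 75th percentile of each array. Probes that stood well above background in every clone of 1 or more ploidies were kept, 25469 of 55681, and 83 with outlier flags were dropped. The brightest kept probe stood for a gene, which gave 12434 named genes and 9363 unnamed probes. RefSeq accessions were paired with symbols through GRCm38.p6. The 38 members had 1 probe in 29 cases and several in 9. All 9 arrays entered 1 limma 3.58.1 model (R 4.3.3) with a mean for each ploidy, with Benjamini-Hochberg adjustment over all features and a threshold of 0.05, and the scripts were tested on simulated data. P-values measure only the spread between these samples, which may be technical.

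Levels are means ± SD over 3 clones and differences ± SE of the model. For a probe dark on all arrays of a group, a fold was taken from the dimmest probe that each array still called well above background. Where the probe's own signal lay higher, that signal was used. A dark probe can lie above the dimmest called one, as Timp4 did in triploid clone 1, so these folds are no strict lower limits. Members called in any comparison, or with groups that did not overlap and a difference of at least 1, are given in every clone. Some other members whose clones differ widely within a group were given in every clone after their values were seen. The members and lists were chosen with earlier results of these data known. Diploid clone 1 alone lay on slide 1 and the other 8 clones on slide 2, so slide as a block equals leaving it out. Normexp correction, with an offset of 50, ran on median pixel signals. Clone numbers were not used to pair the samples, since the labels state no pairing. The deviations of same-numbered clones from their group means correlated at -0.13 to 0.09 over 9 pairs. The 18 pairs with different numbers gave -0.07 to 0.13, and with 3 clones a group this cannot exclude a pairing. Of the further list, 1 gene is not reported here.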

Additional observations from a re-analysis of the deposited data

How the results depend on the processing

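Of the members called, Mmp10 and Adam8 in triploid against tetraploid clones passed under each setting in which they were tested. The median over measured members in tetraploid against diploid clones, taken relative to that of all features, was 0.28 and ran from -0.12 to 0.80 when clones were left out in turn. Of the features, 402 were called in triploid against diploid clones, 16 in tetraploid against diploid clones and 591 in triploid against tetraploid clones. Without the filter on dim probes these counts were 103, 0 and 198, and 1 member was called in triploid against diploid clones in place of 2. With slide as a block they were 81, 0 and 282, again with 1 member. With a fit of only the 2 groups compared, 206 and 369 features were called in the comparisons with triploid clones, and 1 member against diploid clones. The 75th percentile over probes detected on all arrays gave 97 features in tetraploid against diploid clones, quantile normalization 5 and normexp 9. Normexp called 5 members in triploid against tetraploid clones in place of 3, with Mmp2 and Mmp14 added. Its count of features in that comparison is not given here, so a general rise in calls cannot be told apart. That percentile also moved the median of all features in triploid against diploid clones to -0.05, where it was 0.09, and split the calls into 119 higher and 439 lower, against 134 and 268. Under it and under quantile normalization Plaur was called as well. Leaving out each clone in turn gave 61 to 1434 features and 0 to 8 members in triploid against diploid clones, 0 to 40 features and 0 members in tetraploid against diploid clones, and 118 to 1311 features and 2 to 7 members in triploid against tetraploid clones. The causes were not tested. With the replicate block, the clone number as a term, 224 features were called in triploid against diploid clones and 0 in tetraploid against diploid clones. The counts of members stayed at 2, 0 and 3, the last without a feature count given beside it. Settings with dark arrays at the lowest signal above background and with a gene's second probe were chosen after seeing the data. With 3 arrays a group, a signal well above background on only some arrays of a group limits what can be said of Mmp2, Serpine2, Timp4 and Reck.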
